A study of Mus musculus with 2 samples.

Results

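The 9 genes Dlg1, Dlg2, Dlg3, Dlg4, Dlgap1, Dlgap2, Shank1, Shank2 and Shank3 encode scaffold proteins of the postsynaptic density, and they were taken by name from the 30223 genes of a single-cell table of mouse hippocampus. The genes were described across 15 cell classes in 1 wild-type library and 1 library of mice homozygous for Pigv341E, an allele of Pigv made by genome editing in the C57Bl.6/J strain. Pigv encodes a mannosyltransferase that helps to build the glycosylphosphatidylinositol anchor, by which many proteins are held at the cell surface. Each library pooled cells from the 8 hippocampi of 4 mice, dissociated by mechanical means in the cold, and both were made with a droplet method (Chromium, version 3). Neither age nor sex was given in the labels. Y-linked transcripts were found in 91.1% of wild-type and 87.4% of knock-in cells and Xist in 1.38% and 0.566%. With 1 library per genotype there was no replicate, so genotype and library cannot be told apart, no difference between the libraries was tested, and every interval below covers counting error only.

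The postsynaptic density is a protein layer under the membrane of excitatory synapses that holds glutamate receptors opposite the site of transmitter release. The Dlg proteins are membrane-associated guanylate kinases: their PDZ domains bind receptor tails and adhesion proteins near the membrane. The Dlgap proteins bind the guanylate kinase domain of the Dlg proteins and the PDZ domain of the Shank proteins. The Shank proteins form the deeper layer, and through Homer and cortactin they join receptors to internal calcium stores and to actin. Changes in SHANK and DLGAP genes are linked to autism and related disorders in people.

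There were 7094 wild-type and 8836 knock-in cells. Median detected genes per cell were 3122 and 3736, and mitochondrially encoded transcripts had median shares of 0.123% and 0.219%. The libraries shared 28 cell barcodes. Clusters named by markers gave 9 neuron classes (3064 wild-type and 3403 knock-in cells), 4 glial classes (2998 and 3510) and 2 others, fibroblast-like and choroid plexus-like cells. Another 9 clusters stayed unnamed and held 10.6% of wild-type and 16.8% of knock-in cells, while named neurons made up 43.2% and 38.5%. The mature oligodendrocyte-like class had 1501 and 1497 cells, the dentate granule neuron-like class 1450 and 1425, and the smallest class, Cajal-Retzius-like, 63 and 101.

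Sequence from just upstream of the gene is shown for the members at the ends of the range from glia to neurons, Dlg1 and Shank3. Of the 9 members, 6 had an entry in the RefSeq promoter table (GRCm38.p6), and 5 of these had a window of 250 bases before a start site that touched no annotated exon of the gene. The Dlg1 window lies at chr16:31663193-31663442 and the Shank3 window at chr15:89499358-89499607, both on the plus strand. Capitals mark the GC box GGGCGG, read on both strands.
Dlg1: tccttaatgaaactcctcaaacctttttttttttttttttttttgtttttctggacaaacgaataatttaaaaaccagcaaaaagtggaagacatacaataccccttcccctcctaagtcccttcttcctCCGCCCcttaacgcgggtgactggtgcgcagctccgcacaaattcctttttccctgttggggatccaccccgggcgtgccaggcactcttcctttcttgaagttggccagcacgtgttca
Shank3: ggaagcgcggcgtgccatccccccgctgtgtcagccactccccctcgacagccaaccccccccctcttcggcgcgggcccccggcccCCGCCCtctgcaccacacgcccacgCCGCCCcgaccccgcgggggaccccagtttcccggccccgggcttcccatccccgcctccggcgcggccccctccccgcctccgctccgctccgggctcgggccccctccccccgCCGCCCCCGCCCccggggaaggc
The promoter table held 4 windows for Dlg1 and 1 for Shank3, and the other Dlg1 windows are not described here. The Dlg1 window shown held 1 GC box and 9 CpG dinucleotides at 46.0% G and C. The Shank3 window held 4 GC boxes, 2 of them adjacent, and 31 CpG at 82.4% G and C, more CpG than 94.8% of the 32851 windows of that length in the table, whose median was 6.00. A GC box was present in 32.7% of all windows. The E-box form CAGCTG was present in 13% of all windows and in neither of these. Other E-box forms were not counted, and CACGTG is present near the end of the Dlg1 window. A match to these letters is a description of the window only.

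Levels below pool the cells of a class: a gene's summed values are divided by the class total and given per 10000, for the wild-type and then the knock-in library. Whether they depend on the length of a gene was not tested, and members were ordered against each other only per length. Over all cells and per 100 kb of gene span, Shank1 was highest, at 7.92 and 8.64, and Shank2 lowest, at 0.547 and 0.474. Per kb of merged exons, Dlg2 was highest, at 2.38 and 2.14, and Dlg3 lowest, at 0.0517 and 0.0475. The order of the members thus depended on which length was used, and no ranking of their transcript numbers is read from either.

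**Figure D1:**
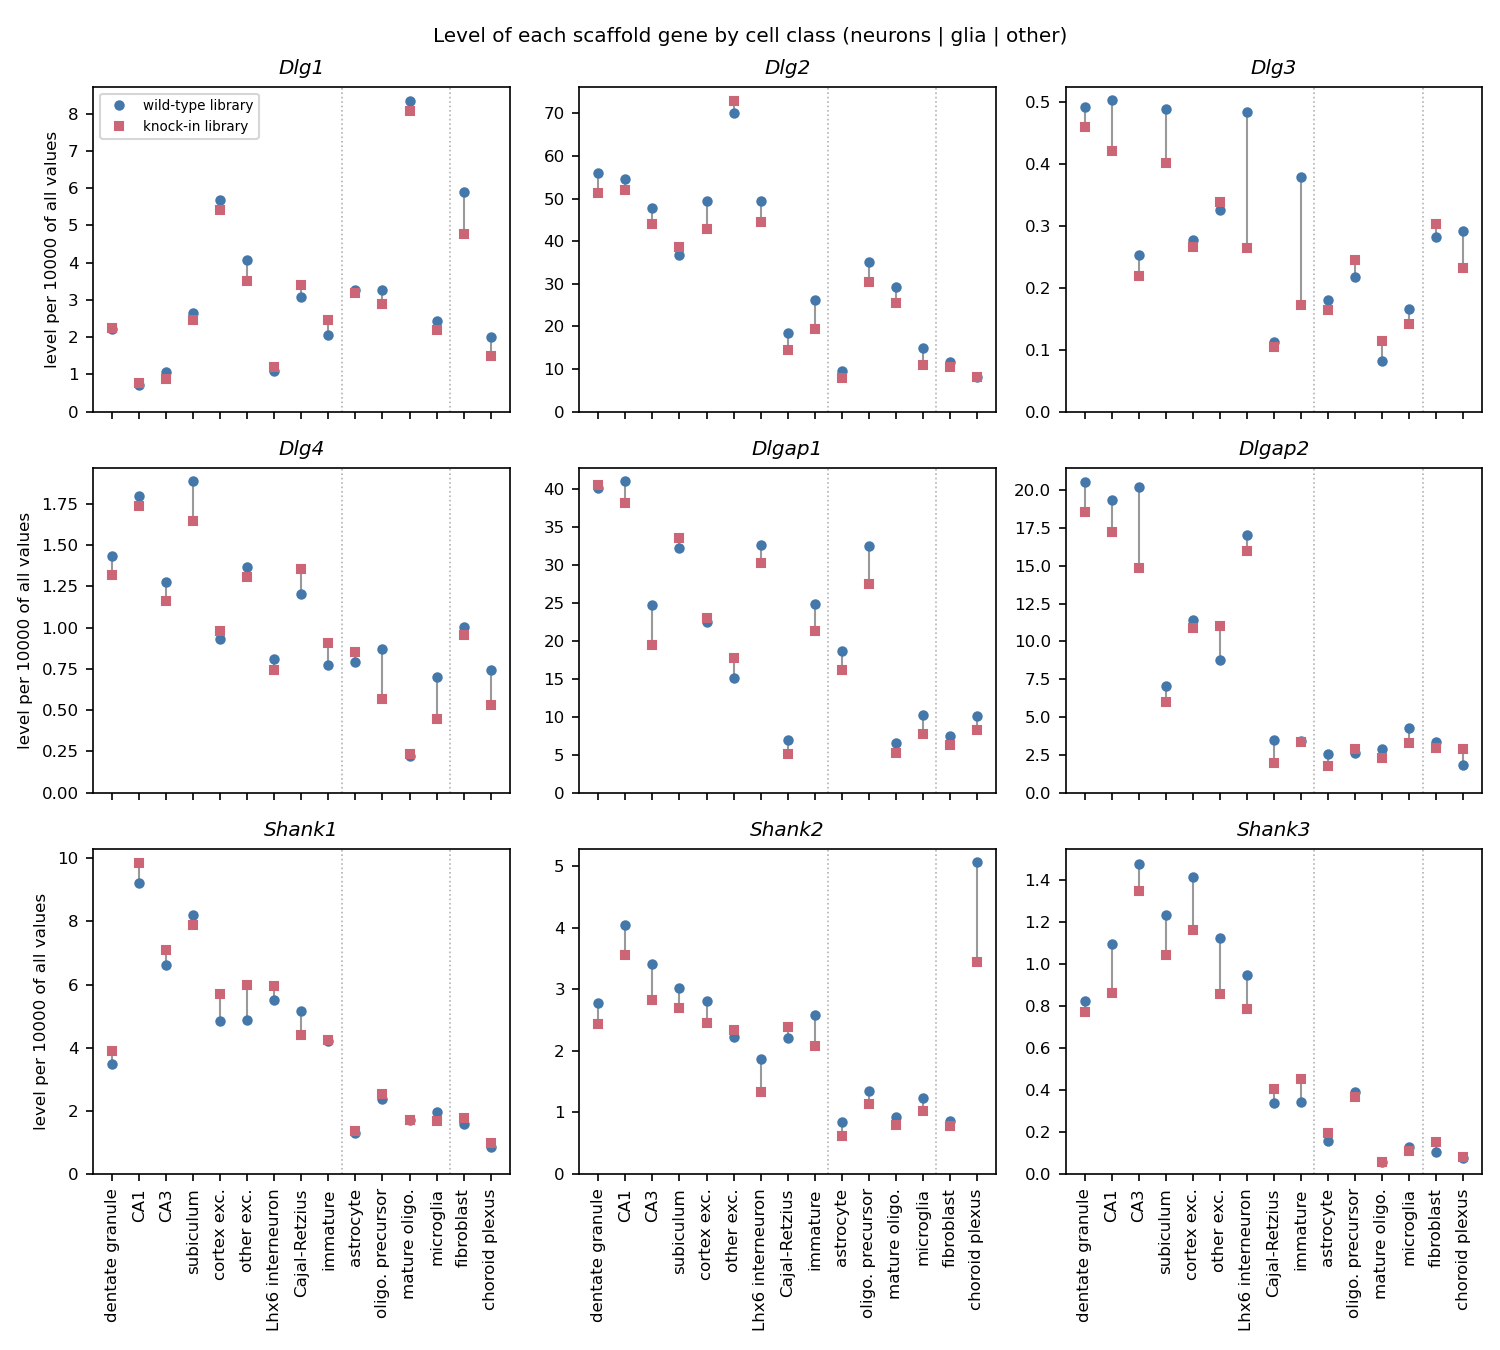
Level of each gene, per 10000 of all values (y axis, linear and different for each gene), in 15 cell classes (x axis) for the wild-type library (circles) and the knock-in library (squares), joined by a line for each class. By the mean of both libraries, Dlg1 was highest in mature oligodendrocyte-like cells (8.34 and 8.08) and the other genes in a neuron class, except Shank2, for which choroid plexus-like (5.06 and 3.43) and CA1 pyramidal neuron-like cells (4.04 and 3.55) changed places between the libraries.

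Dlg4 encodes the most studied scaffold of the excitatory synapse (chromosome 11, 70016942 to 70047522, plus strand, GRCm38). Its level was 1.79 and 1.74 in CA1 pyramidal neuron-like cells and 1.88 and 1.64 in subiculum-like cells. The values of these classes overlapped across the libraries, and both lay above all other classes. Dentate granule neuron-like cells had 1.43 and 1.32 and CA3 pyramidal neuron-like cells 1.28 and 1.16. Interneurons carried less: Lhx6 interneuron-like cells had 0.807 and 0.745. Mature oligodendrocyte-like cells were lowest, at 0.221 and 0.236.

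Dlg2 encodes a close relative of the Dlg4 protein with a similar role at the synapse, and it spans 1972.6 kb (chromosome 7, 90476672 to 92449247, plus strand). It was highest in the excitatory neurons without a regional name, at 70.1 and 73.0. Dentate granule neuron-like (56.1 and 51.3) and CA1 pyramidal neuron-like cells (54.5 and 52.0) followed and could not be ordered. Lhx6 interneuron-like cells had 49.5 and 44.4, a level like that of CA3 pyramidal neuron-like cells at 47.7 and 44.0. In glia Dlg2 was at 35.1 and 30.5 in oligodendrocyte precursor-like, 29.3 and 25.4 in mature oligodendrocyte-like and 9.46 and 7.93 in astrocyte-like cells. Mature oligodendrocyte-like cells were the lowest class for Dlg4 but not for Dlg2.

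Dlg3 encodes the Dlg protein that binds receptors early in synapse formation (X chromosome, 100767722 to 100818410, plus strand), and it was the member closest to the lower limit of measurement. Its highest levels were 0.492 and 0.460 in dentate granule neuron-like cells and 0.504 and 0.421 in CA1 pyramidal neuron-like cells. Mature oligodendrocyte-like cells had 0.0821 and 0.115. Of the 14 pairs of classes next to each other in the order of Dlg3 levels, 11 overlapped across the libraries, so most of that order was not resolved.

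Dlg1 encodes the Dlg protein that acts in cell polarity and receptor transport in many cell types (chromosome 16, 31663443 to 31875129, plus strand). It ran opposite to the others. Mature oligodendrocyte-like cells had 8.34 and 8.08, CA1 pyramidal neuron-like cells 0.728 and 0.770, and CA3 pyramidal neuron-like cells 1.06 and 0.888. The highest class was thus 10.96-fold above the lowest, by the mean of both libraries. Hippocampal pyramidal cells formed the low end, yet cortex excitatory neuron-like cells had 5.68 and 5.40, second by the mean of both libraries and overlapping fibroblast-like cells (5.89 and 4.77), so low Dlg1 did not extend to all excitatory neurons. With the values of every cell drawn down to 1000 (thinned), Dlg1 was found in 51.3% (48.7 to 53.9%, exact Clopper-Pearson 95% interval) and 52.9% (50.3 to 55.5%) of mature oligodendrocyte-like cells, but in 7.74% (5.80 to 10.1%) and 8.91% (6.85 to 11.3%) of CA1 pyramidal neuron-like cells. Before thinning the shares were 99.3% and 98.9% against 48.3% and 49.8%.

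Dlgap1 and Dlgap2 encode the proteins that link the Dlg layer to the Shank layer. Dlgap1 (chromosome 17, 69969073 to 70821413, plus strand) was at 40.1 and 40.5 in dentate granule neuron-like cells and at 41.0 and 38.2 in CA1 pyramidal neuron-like cells. Oligodendrocyte precursor-like cells had 32.6 and 27.5, above CA3 pyramidal neuron-like cells at 24.7 and 19.4, and astrocyte-like cells had 18.7 and 16.2. In mature oligodendrocyte-like cells the level was 6.58 and 5.25, so within this lineage Dlgap1 was high in precursors and low in mature cells.

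Dlgap2 (chromosome 8, 14095865 to 14847680, plus strand) was more restricted to neurons. It reached 20.5 and 18.6 in dentate granule neuron-like, 19.4 and 17.2 in CA1 pyramidal neuron-like and 20.2 and 14.8 in CA3 pyramidal neuron-like cells, which overlapped. Subiculum-like cells had only 7.07 and 5.97, although their Dlgap1 level was 32.2 and 33.6. Immature neuron-like cells had 3.43 and 3.34 of Dlgap2 beside 24.9 and 21.3 of Dlgap1. By the mean of both libraries, Dlgap2 in subiculum-like and immature neuron-like cells was at 33.4% and 17.3% of its highest class. Dlgap1 in the same classes was at 81.7% and 57.3% of its own highest class. In the 4 glial classes Dlgap2 lay between 1.79 and 4.28.

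Shank1 encodes a Shank protein found mainly in brain (chromosome 7, 44310253 to 44360572, plus strand). Its classes separated more clearly than those of most members, with 5 of 14 neighbouring pairs overlapping. CA1 pyramidal neuron-like cells had 9.23 and 9.85, subiculum-like cells 8.21 and 7.90, CA3 pyramidal neuron-like cells 6.62 and 7.11 and dentate granule neuron-like cells 3.49 and 3.91. These 4 classes did not overlap across the libraries. Dentate granule neuron-like cells were the lowest of the 9 neuron classes for Shank1, whereas they were among the highest for Dlg2, Dlgap1 and Dlgap2.

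Shank3, a gene whose loss causes a neurodevelopmental syndrome in people (chromosome 15, 89499623 to 89560261, plus strand), was highest, among the 15 classes ranked, in CA3 pyramidal neuron-like cells (1.48 and 1.35) and cortex excitatory neuron-like cells (1.41 and 1.16). CA1 pyramidal neuron-like cells had 1.09 and 0.860 and dentate granule neuron-like cells 0.823 and 0.769. Mature oligodendrocyte-like cells were lowest, at 0.0555 and 0.0540, and a value above 0 was found in 2.13% (1.46 to 2.996%) and 2.61% (1.86 to 3.54%) of them. The mean level over both libraries was 25.8-fold higher in the highest class than in the lowest, the widest range of the 9 genes.

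Shank2 (chromosome 7, 144001928 to 144424494, plus strand), which encodes a Shank protein that also acts in epithelia, was at 4.04 and 3.55 in CA1 pyramidal neuron-like, 3.40 and 2.82 in CA3 pyramidal neuron-like and 2.78 and 2.43 in dentate granule neuron-like cells. Choroid plexus-like cells, an epithelium, had 5.06 and 3.43, above CA1 in the wild-type and below it in the knock-in library. That level came from 1 of the 2 clusters of this class. The cluster led by Htr2c (40 and 21 cells) had 10.6 and 11.5, and the one led by Ttr (62 and 70 cells) had 1.01 and 0.927. Within each cluster the libraries were close, and the mix of the clusters differed between them.

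Some members share their span with other genes in the GENCODE M21 annotation. Dlg2 overlaps 22 on its own strand and 8 on the other, while Dlg3 and Dlg4 overlap none. On their own strand, Dlg1 and Dlgap2 each overlap 2 genes and Shank1 and Shank2 each overlap 1. On the opposite strand, Dlg1, Dlgap1, Dlgap2 and Shank2 each overlap 2 genes and Shank1 and Shank3 each overlap 1. Whether counting used strand was not given in the sources used here, so antisense reads at these genes cannot be told apart from their own. How reads in same-strand overlaps were assigned is not known either.

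Neurons exceeded glia for every member except Dlg1. Over all named neurons and all named glia, the neuron level divided by the glial level was 8.52 (wild-type) and 6.70 (knock-in) for Shank3, and 5.81 and 6.21 for Dlgap2. It was 3.19 and 3.55 for Shank1, 3.04 and 3.09 for Shank2, 3.02 and 3.18 for Dlgap1, and 2.94 and 2.89 for Dlg4. It was 3.41 and 2.61 for Dlg3 and 2.35 and 2.71 for Dlg2. For Dlg1 it was 0.346 and 0.391. The same ratio for 7 broad markers of excitatory neurons (Slc17a7, Neurod2, Neurod6, Tbr1, Bhlhe22, Sv2b and Arpp21), summed, was 3.41 and 3.35, and Shank3 and Dlgap2 were above this yardstick in both libraries. With values of 1 set to 0 the yardstick was 4.86 and 4.49, and Shank1 (5.72 and 6.02) and Shank2 (7.73 and 6.15) were also above it, as were Shank3 (8.70 and 8.12) and Dlgap2 (7.81 and 8.89). The place of Shank1 and Shank2 thus depended on how values of 1 were treated.

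The markers also give the level that transcripts of excitatory neurons reached in other cells, a comparison added after the values had been seen. Summed, they stood in mature oligodendrocyte-like cells at 23.8% and 23.5% of their level in excitatory neurons, in microglia-like cells at 32.1% and 26.7%, and in oligodendrocyte precursor-like cells at 51.9% and 56.6%. Single markers varied widely, from 6.42% to 42.5% over both libraries in mature oligodendrocyte-like cells, so each member was set against the highest single marker of the class. Whether RNA from neurons gave these levels was not tested.

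Dlg1 was above all 7 markers in both libraries in each of the 6 classes outside neurons. In mature oligodendrocyte-like cells it was at 424% and 415% of its level in excitatory neurons. Dlg2 was above them in mature oligodendrocyte-like cells, at 54.2% and 49.6% against a highest marker of 42.5%. Dlgap1 was above them in astrocyte-like cells (51.4% and 46.7% against 34.8%) and in oligodendrocyte precursor-like cells (89.4% and 79.4% against 76.5%). Dlg4 was above them in astrocyte-like (52.9% and 60.5%) and fibroblast-like cells (67.0% and 68.2%, against 46.6%), Dlg3 in these and in choroid plexus-like cells, and Shank2 in choroid plexus-like cells (161% and 125% against 39.1%). Levels of Dlg3 were low throughout, and those of Dlg2 in oligodendrocyte precursor-like cells lay within the marker range (65.0% and 59.6%). Dlgap2, Shank1 and Shank3 exceeded the markers in none of these 6 classes, and no expression of their own in them was read from these levels.

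The 3 named classes with fewer than 50 cells in a library were kept out of the rankings and comparisons, and 2 of them held the highest level of a Shank gene in any named class. Endothelial-like cells (24 and 41 cells, carrying all 10 endothelial markers) had a Shank3 level of 1.82 and 1.95, above CA3 pyramidal neuron-like cells in both libraries. This was 178% and 218% of the level in excitatory neurons, against a highest single marker of 98.2%. A Shank3 value of at least 2 was found in 37.5% (18.8 to 59.4%) and 48.8% (32.9 to 64.9%) of these cells. Ependymal-like cells (18 and 14 cells) had a Shank2 level of 18.7 and 11.2, which was 594% and 407% of that in excitatory neurons, against a highest marker of 70.4%. Dlg1 was above every marker in endothelial-like, mural-like and ependymal-like cells. These levels rest on few cells.

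**Figure D2:**
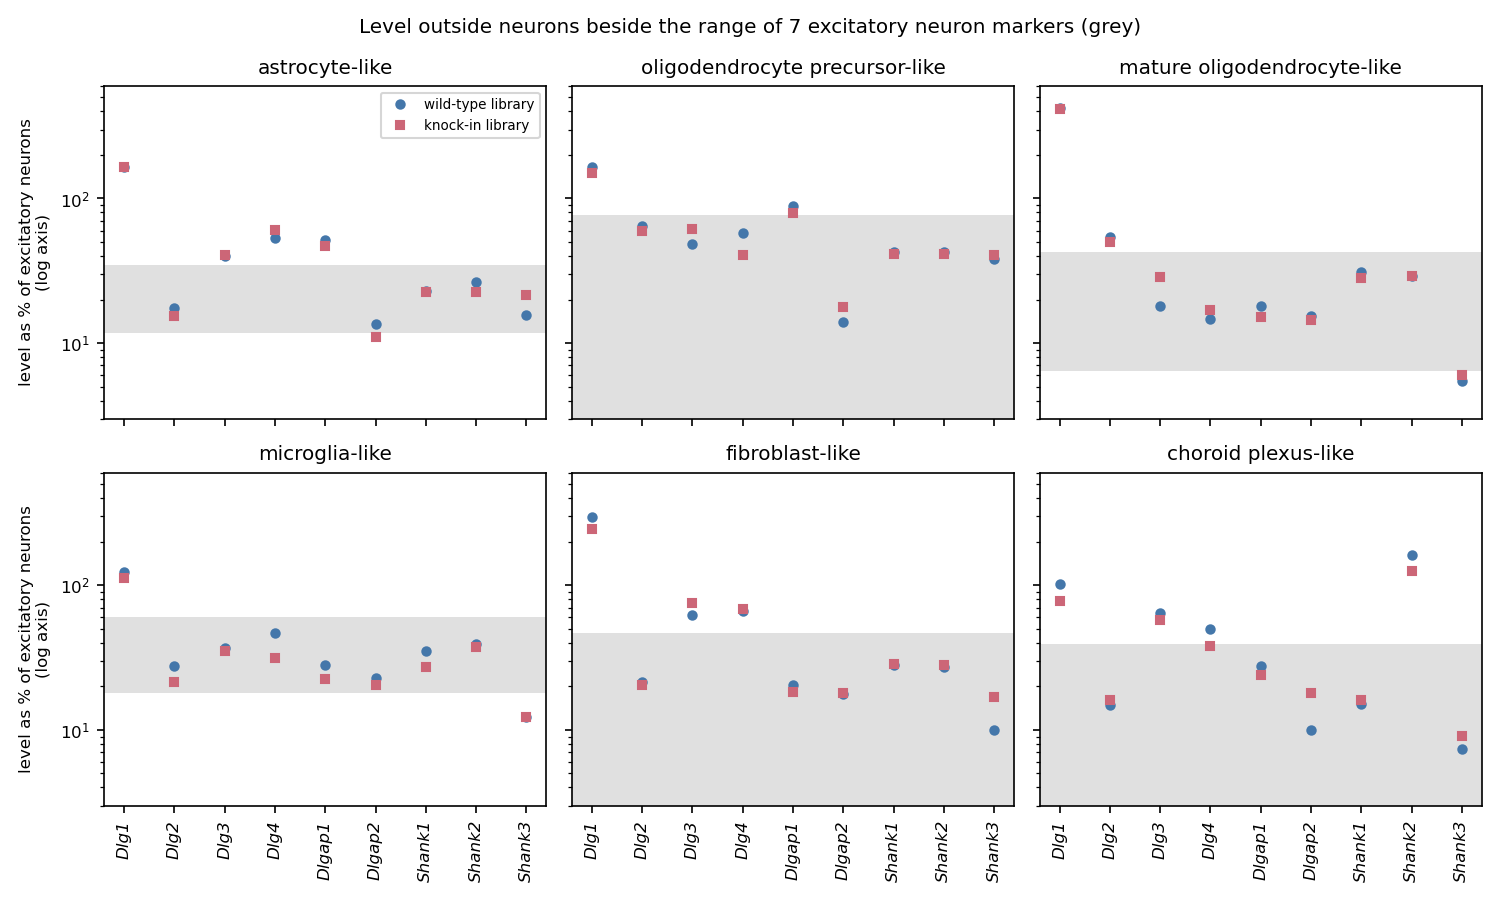
Level of each gene (x axis) in 6 classes outside neurons as a percentage of its level in excitatory neuron-like cells of the same library (y axis, log scale), for the wild-type (circles) and knock-in library (squares). The grey band runs from the lowest to the highest of 7 excitatory neuron markers over both libraries and is drawn down to the axis limit where the lowest is under 3%. Among the 6 classes drawn, Dlg1 is above the band in every one, Shank2 only in choroid plexus-like cells, and Shank3 in none.

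Shares of cells with a value above 0 could not be used for this in glia. Shank1 had a value above 0 in 90.1% and 87.2% of mature oligodendrocyte-like cells, but a value of at least 2 in 21.9% and 22.0%, and after thinning it was found in 15.9% and 15.6%. In microglia-like cells, which lie outside the neural lineage, a Shank1 value above 0 was found in 69.2% and 64.2%.

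The 3 clusters of microglia-like cells differed in their level of neuronal markers. The summed excitatory markers were at 8.97 and 8.42 per 10000 in the first cluster (195 and 146 cells), 5.62 and 5.46 in the second (242 and 349) and 1.12 and 1.59 in the third (255 and 396), which was led by P2ry12 and Cx3cr1. Dlg2 was at 32.8 and 25.2, 14.9 and 14.3, and 3.57 and 4.26 in the same clusters. Shank1 was at 3.86 and 3.47, 2.51 and 2.53, and 0.328 and 0.466. Both genes followed the markers from cluster to cluster, while Dlg1, at 2.57 and 2.69, 3.23 and 2.99, and 1.72 and 1.44, did so less closely. The first cluster was 195 of 692 microglia-like cells in the wild-type library and 146 of 891 in the knock-in library.

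**Figure D3:**
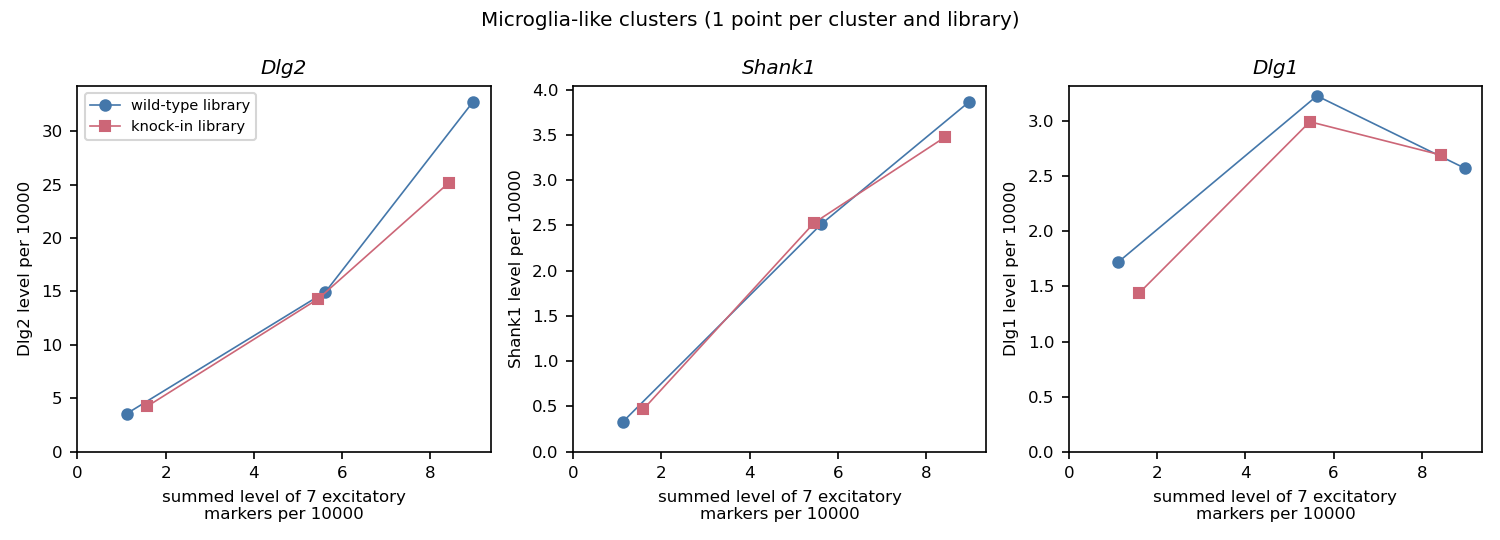
Level of Dlg2, Shank1 and Dlg1 (y axis, per 10000) against the summed level of 7 excitatory neuron markers (x axis, per 10000) in the 3 microglia-like clusters, 1 point per cluster and library (circles wild-type, squares knock-in). Dlg2 and Shank1 are lowest in the cluster with the fewest markers (1.12 and 1.59) and highest in that with the most (8.97 and 8.42), and Dlg1 peaks in the middle cluster (3.23 and 2.99).

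The libraries were then compared by the log2 ratio of their levels (knock-in over wild-type), after 0.1 had been put on each level. Over all cells 8 of the 9 genes were lower in the knock-in library, by small amounts. Dlgap2 was at 11.1 and 9.42 (log2 ratio -0.24), Shank2 at 2.31 and 2.00 (-0.20), Dlgap1 at 24.6 and 21.8 (-0.17) and Dlg2 at 38.7 and 34.9 (-0.15). Dlg1 (3.51 and 3.29), Dlg3 (0.302 and 0.278) and Dlg4 (1.04 and 0.971) each had a ratio of -0.09 and Shank3 (0.627 and 0.592) one of -0.07. Shank1 alone was higher, at 3.98 and 4.35 (0.12). The median over all genes that reached a minimum level of 0.5 and the share of cells given below was -0.02. Of these 4134 genes, 54.4% were below 0, and Dlg3 did not reach that level. The median depended on the minimum level, at 0.05 with a minimum of 0.2 and -0.08 with a minimum of 1. No difference of the members from this background is therefore read from their ratios. The knock-in library also held the smaller share of named neurons, given above. With every cluster given the same weight in both libraries, the same 8 genes were lower, from -0.04 for Dlg1 to -0.18 for Shank2, with Dlgap2 at -0.16 and Dlgap1 at -0.11.

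A gene was counted as differing in size when its log2 ratio was at least 0.5 in absolute value, its level at least 0.5 per 10000 in 1 library, and its value above 0 in 10% or more of the class in that library. Over all cells none of the members met this rule, against 1.21% of all genes. None met it in dentate granule neuron-like cells (1.15% of all genes), CA1 pyramidal neuron-like cells (1.60%), CA3 pyramidal neuron-like cells (4.41%) or subiculum-like cells (6.10%). None met it in cortex excitatory neuron-like (8.68%), other excitatory neuron-like (9.03%), Lhx6 interneuron-like (3.36%) or immature neuron-like cells (18.0%). Outside neurons, none met it in astrocyte-like (3.75%), mature oligodendrocyte-like (4.03%) or fibroblast-like cells (10.4%). In the other 4 classes the rule was met by 1 member in Cajal-Retzius-like cells (18.8% of all genes), 1 in oligodendrocyte precursor-like cells (4.54%), 1 in microglia-like cells (4.22%) and 2 in choroid plexus-like cells (35.2%). Of 112 pairs of member and class that reached the level and share, 5 met the size rule, against 9.11% of 59654 such pairs over all genes, and the count of 5 rose to 8 or 9 under some alternatives, so no difference of the members from the background is read from it. In each of these 4 classes 7 members had reached the level and share.

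**Figure D4:**
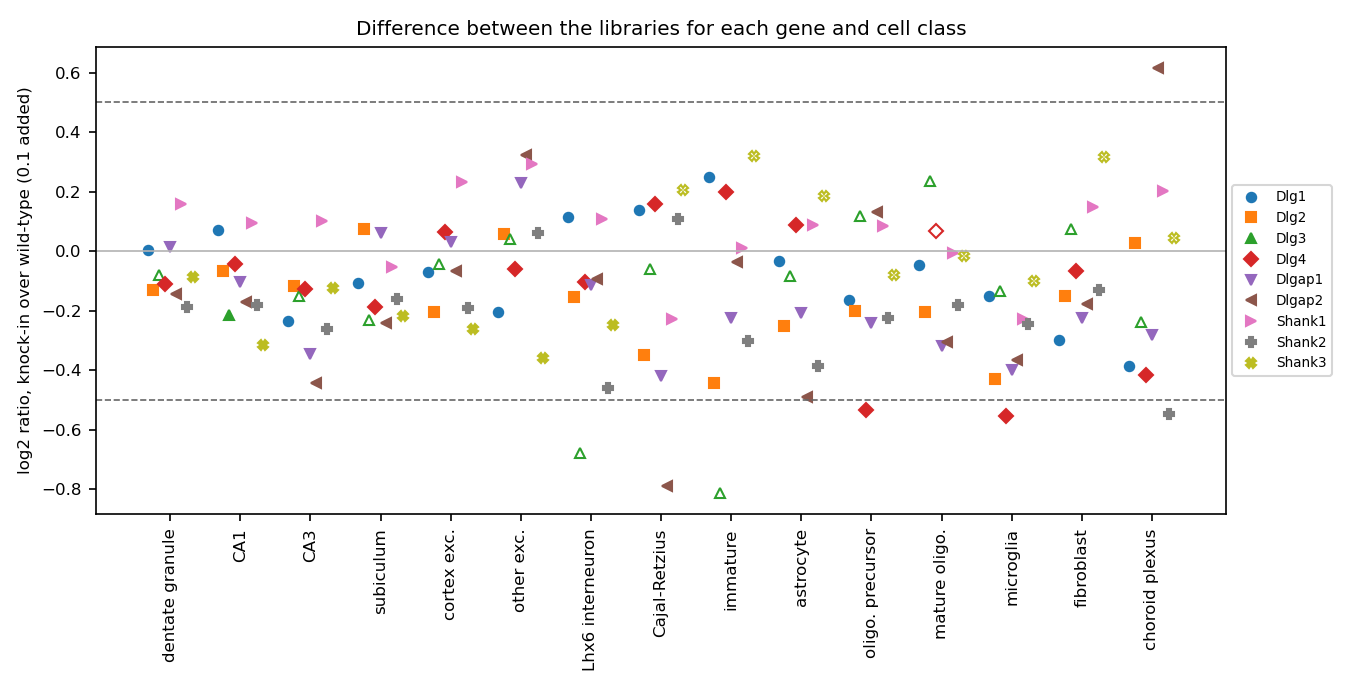
Log2 ratio of knock-in to wild-type levels, 0.1 added (y axis), for each gene in each of 15 cell classes (x axis). Filled symbols reached the minimum level and share of cells, open symbols did not, and dashed lines mark 0.5 in either direction. The filled symbols beyond the lines are Dlgap2 in Cajal-Retzius-like (-0.79) and choroid plexus-like cells (0.61), Shank2 in choroid plexus-like cells (-0.55) and Dlg4 in microglia-like (-0.55) and oligodendrocyte precursor-like cells (-0.53).

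The single neuron pair was Dlgap2 in Cajal-Retzius-like cells, the reelin-producing neurons of the marginal zone. Its level was 3.49 in 63 wild-type and 1.98 in 101 knock-in cells (log2 ratio -0.79). A value above 0 was found in 71.4% (58.7 to 82.1%) and 55.4% (45.2 to 65.3%), and after thinning in 17.5% (9.05 to 29.1%) and 11.9% (6.29 to 19.8%). Both pairs of intervals overlapped. These levels were 18.7% and 12.2% of those in excitatory neurons, below the summed excitatory markers at 22.8% and 25.5%. Single markers in this class ran from 9.74% to 617% over both libraries, so their sum is no clear yardstick here. Whether RNA from other neurons gave the Dlgap2 level was not tested. Dlgap1 and Dlg2 were also lower in these cells (6.92 and 5.15, and 18.4 and 14.4), without meeting the rule.

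Dlg4 was lower in 2 glial classes. In microglia-like cells it was at 0.699 and 0.445 (-0.55), where the summed excitatory markers were at 4.64 and 4.01. The share of cells above 0 was 38.0% (34.4 to 41.7%) and 22.1% (19.4 to 24.98%), but the share with at least 2 was 10.1% (7.97 to 12.6%) and 11.1% (9.12 to 13.4%), so the difference lay in values of 1. With values of 1 set to 0 the ratio was -0.09. After thinning, Dlg4 was found in 8.09% (6.17 to 10.4%) and 2.92% (1.91 to 4.25%) of these cells, intervals that did not overlap. In the cluster with the most excitatory markers Dlg4 was at 1.31 and 0.611, and in the one with the fewest at 0.360 and 0.409. In oligodendrocyte precursor-like cells Dlg4 was at 0.868 and 0.569 (-0.53), where the excitatory markers were higher in the knock-in library (7.50 and 8.50). The part of neuronal RNA in these ratios was not tested.

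In choroid plexus-like cells Dlgap2 was at 1.86 and 2.90 (0.61) and Shank2 at 5.06 and 3.43 (-0.55). With its clusters given equal weight in both libraries, the Shank2 ratio was 0.08 and the Dlgap2 ratio 0.34. The Dlgap2 ratio was 0.25 when genes that differ between the libraries were left out of the clustering, and 0.45 as a mean of per-cell scaled values, all short of the size rule. In this class the median ratio over all genes was -0.18, and mitochondrially encoded transcripts had a median share of 1.37% and 3.12%.

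Within the large neuron classes the differences were small. In dentate granule neuron-like cells the 8 members that reached the level and share had a median ratio of -0.10, beside -0.0034 for all genes. In CA1 pyramidal neuron-like cells the median of all 9 was -0.10 beside -0.03, and in CA3 pyramidal neuron-like cells that of 8 members was -0.18 beside -0.0029. In the other excitatory neuron-like cells the sign was the opposite, 0.06 beside -0.04. The lower medians were not particular to neurons, and those of the glial classes were further below 0. They were -0.36 beside -0.0049 in microglia-like and -0.21 beside -0.05 in astrocyte-like cells. Oligodendrocyte precursor-like cells had -0.20 beside -0.05 and mature oligodendrocyte-like cells -0.19 beside -0.05. Whether the class medians over all genes shift with the minimum level, as the median over all cells did, was not tested. The largest differences in CA3 were Dlgap2 (20.2 and 14.8, -0.44) and Dlgap1 (24.7 and 19.4, -0.35). In CA1 the largest was Shank3 (1.09 and 0.860, -0.32), found above 0 in 67.8% (64.0 to 71.4%) and 57.3% (53.4 to 61.1%) of cells.

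Shank1 and Shank2 differed in direction across classes. Shank2 was lower in the knock-in library in 13 of 15 classes and Shank1 higher in 11 of 15, as in dentate granule neuron-like cells, where Shank1 was at 3.49 and 3.91 (0.16) and Shank2 at 2.78 and 2.43 (-0.19). Dlg2 and Dlgap2 were lower in 12 classes, Dlgap1 and Dlg3 in 11, and Dlg1, Dlg4 and Shank3 in 10. These counts include classes below the level and share, which Dlg3 reached in 1 class, Shank3 in 7 and Dlg4 in 14. Depending on the class, 50.6% to 61.7% of all genes that reached them were below 0. No difference of the members from the background is read from these counts. All classes come from the same pair of libraries and are not independent observations.

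Dlg3 showed the lowest ratios below the level limit. In Lhx6 interneuron-like cells it was at 0.484 and 0.265 (-0.68) and in immature neuron-like cells at 0.379 and 0.173 (-0.81). A value of at least 2 was found in 7.01% (3.55 to 12.2%) and 0.787% (0.0955 to 2.82%) of Lhx6 interneuron-like cells, but thinned cells gave 3.18% (1.04 to 7.28%) and 3.15% (1.37 to 6.11%). In immature neuron-like cells the thinned shares were 4.48% (0.933 to 12.5%) and 1.10% (0.0278 to 5.97%). The thinned intervals overlapped in both classes, but at shares this low they could hardly show a difference, so none is read from them in either direction. In Lhx6 interneuron-like cells the intervals for a value of at least 2 did not overlap.

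Other genes of the postsynaptic apparatus were read from 4 lists of 59 genes in all. In dentate granule and CA1 pyramidal neuron-like cells none of them met the size rule in any list. In CA3 pyramidal neuron-like cells, among the 16 of 24 other excitatory scaffolds and adaptors that reached the level and share, 1 was higher and 2 were lower, where 4.41% of all genes met the rule. Sorbs2, an actin-linked adaptor, was at 3.76 and 2.50 (-0.57). Homer1, which ties Shank proteins to metabotropic glutamate receptors, was at 3.79 and 2.32 there (-0.69). It was also lower in cortex excitatory neuron-like (3.68 and 1.71, -1.07), subiculum-like (4.84 and 3.02, -0.66) and immature neuron-like cells (1.39 and 0.944, -0.51). Its relative Homer2 was higher in CA3 pyramidal neuron-like cells (1.11 and 1.65, 0.52) and in the other excitatory neuron-like cells (0.615 and 1.25, 0.91).

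In those other excitatory neuron-like cells Magi3, a scaffold with guanylate kinase and PDZ domains, was lower (1.36 and 0.767, -0.76). Grip1, which binds AMPA receptors, was higher in immature neuron-like cells (4.25 and 7.70, 0.84). Dynll1, a dynein light chain that binds Dlgap proteins, was also higher there (0.144 and 0.505, 1.31). In Cajal-Retzius-like cells, 7 of 15 enzymes and regulators of small GTPases were lower and none higher, in a class where 10.9% of all genes were lower by the rule and 7.95% higher. Their median ratio was -0.40 beside -0.06 for all genes. They included Rasgrf1 (1.99 and 1.13, -0.76), an exchange factor for Ras, and Camk2b, a calcium-dependent kinase subunit (2.64 and 1.58, -0.71).

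Another kinase subunit gene, Camk2d, went in opposite directions in cortex excitatory neuron-like cells (0.813 and 1.37, 0.69) and other excitatory neuron-like cells (0.894 and 0.449, -0.85). It was also lower in Cajal-Retzius-like (1.07 and 0.566, -0.81) and choroid plexus-like cells (1.95 and 1.24, -0.61). Itpka, an inositol trisphosphate kinase, was higher in other excitatory neuron-like cells (0.298 and 0.502, 0.60). Of the 10 genes linking the density to actin, 1 met the rule in a neuron class: Wasf3, at 0.469 and 0.786 (0.64) in Cajal-Retzius-like cells. There 8 of the 10 had reached the level and share. Across the neuron classes 1.15% to 18.8% of all genes met the rule, with the highest share in these cells. Of the inhibitory scaffolds, Lhfpl4, which binds GABA-A receptors, was at 0.343 and 0.559 (0.57) in immature neuron-like cells. The classes with the most such genes were small ones, in which many genes met the rule.

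Across the 30 values of 15 classes in 2 libraries, which share libraries and cells' depth correction, Shank1 and Shank3 varied most alike of any pair of members (Pearson r of log2 levels 0.90). Dlg1 had a negative r with each of the 8 others, from -0.22 with Dlg2 to -0.55 with Shank2. Among 5357 genes, those most like Shank1 were Sgsm3, Ptprn2 and Snhg14 (0.95, 0.95 and 0.94), and those most like Shank3 were Tmem63c, Fam169a and again Sgsm3 (each 0.95). Dlgap2 was most like Rimbp2, Cnnm1 and the NMDA receptor subunit gene Grin2a (0.93, 0.92 and 0.92). Dlgap1 was most like the metabotropic glutamate receptor gene Grm5 (0.86), then Plppr5 and Herc3 (both 0.86).

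Glt1d1 and Csrnp3 were among the 3 genes most like Dlg2 (both 0.90), and Dlg4 was most like Trerf1, Ppm1e and Palm (0.87, 0.85 and 0.85). Shank2 was most like Atp2b3, Ulk4 and Ccdc30 (0.90, 0.85 and 0.82), and Dlg3 most like Herc3, Speg and Ppargc1b (0.84, 0.78 and 0.78). For Dlg1 the best matches were weaker, Tulp4, Prrg1 and Gm28039 (0.76, 0.74 and 0.73).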

How the data were processed

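Per the labels' protocols, hippocampal cells of 4 mice per genotype were pooled into 1 library each. The authors deposited 1 table of 30223 genes by 15930 cells. Its values are whole numbers from 0 to 6772 and were treated as a score, not raw counts: the deposited totals per cell lie between 4846 and 14501 and its name carries the short form of a depth-corrected assay. Depth is therefore unknown. Per the submitters' processing notes, Seurat 3.0.0 and the build GRCm38 were used. The aligner, annotation, cell filter and doublet removal are not given in the sources used here. Clusters were made in scanpy 1.11.5 (Python 3.11.15) (each cell scaled to 10000, log, 2000 variable genes without sex-linked genes, the members and the 59 listed genes, 30 components, 15 neighbours, Leiden resolution 1), which gave 37 clusters. Each cluster was named for the class with most of its markers, at least 3, each above 0 in 25% of its cells and 1.5-fold above other cells. Excitatory neurons and interneurons took the subtype with most markers if it had at least 3, and otherwise the broad class. They also took the broad class where another subtype had more markers among the 10 leading genes. A cluster stayed unnamed where a class of another lineage had 60% as many markers or its 10 leading genes belonged elsewhere. It also stayed unnamed with under 40% of the markers and none leading. These naming rules were set after the clusters were seen. Names end in "-like" since they rest on markers alone. No cell was removed. Scrublet (expected rate 6%) called 61 wild-type (0.86%) and 209 knock-in cells (2.37%), left out as an alternative, as were 50 cells outside a filter of 500 genes and 10% mitochondrial transcripts. Classes needed 50 cells in each library, which left out 3. Thinning drew 1000 from each cell's values. It does not recover sequencing depth. The calculations were tested on simulated data. No test was possible. Named genes are the members, up to 3 per direction of each list that met the size rule in a neuron class, and the 3 genes most like each member. Of these, 2 genes are not reported here. The members and lists were chosen with earlier results of these data known.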

Additional observations from a re-analysis of the deposited data

Results flagged for a closer look

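Dlgap2 differed in opposite directions between the libraries in 2 small classes: its log2 ratio, knock-in over wild-type, was -0.79 in Cajal-Retzius-like cells and 0.615 in choroid plexus-like cells. The difference between these classes was not tested. The choroid plexus value was 0.34 with equal cluster weights and 0.25 when genes that differ between the libraries were left out of the clustering, and then no longer met the size rule. In choroid plexus-like cells 35.2% of all genes met the same size rule, and in Cajal-Retzius-like cells 18.8%.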

How the results depend on the processing

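Over all cells, 8 of 9 members were lower and Shank1 was higher in the knock-in library under each of the 8 alternatives that act on these ratios (the other 8 of 16 change only clusters, minimum levels or the size threshold), and the direction of every neuron-to-glia ratio was kept. The count of member and class pairs that met the size rule, 5, moved most. It was 1 with 1 added to levels in place of 0.1, 2 with equal cluster weights or unscaled means, 3 with per-cell scaled means or a minimum level of 1, and 0 at a log2 ratio of at least 1. It was 8 at resolution 2 or with values of 1 set to 0, 9 without called doublets, and between 5 and 7 in the other settings. Shank2 in choroid plexus-like cells reversed to 0.078 with equal cluster weights, since its level differed between the clusters and their mix between the libraries. For the other changes the cause was not tested. Dlg4 in microglia-like cells ranged from -0.66 to -0.09. With values of 1 set to 0, 6 of 9 members kept their highest class. No paired analysis was possible because each genotype was 1 library. Small classes, unknown depth and the level of excitatory markers outside neurons limit what low levels show.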
